A study of Mus musculus with 2 samples.

Results

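The metabotropic glutamate receptor genes Grm2, Grm3, Grm4, Grm5, Grm6, Grm7 and Grm8 were followed in 2 DNase-seq libraries of mouse hippocampus. Members were chosen by name, 7 of 21728 protein-coding genes on the autosomes and the X chromosome, and each was read over its GENCODE body with 10 kb on each side. DNase I cuts open chromatin, so a peak of cuts marks a region such as a promoter or enhancer, and a footprint marks bases inside it that a bound protein shields. The tissue, a layer of hippocampus that is not named further, came from B6CASTF1/J mice labelled male and aged 25 days, a hybrid of a laboratory and a wild-derived strain, and no treatment or allele is named. They form 1 group of 2 biological replicates with 1 shared donor entry, the labels do not say whether they came from separate animals, and the files do not separate the alleles of the parental strains.

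All 7 genes were open at their first annotated start in both libraries. Their highest promoter values were nonetheless low to middling, from 0.466 and 0.335 at Grm6 to 2.14 and 1.76 at Grm5 (replicates 1 and 2), and none of the 7 means reached the median of open promoters. Grm7 held the most distal peaks, 18 and 16, and Grm6 held none. At Grm2 replicate 1 had 7 peaks and replicate 2 had 2, leaving out a peak at an annotated start inside a neighbour.

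Glutamate is the main excitatory transmitter of the brain, and metabotropic receptors carry its signal through G proteins rather than through an ion channel. Group I, to which Grm5 belongs, acts through Gq and phospholipase C and is mostly postsynaptic. Group II (Grm2 and Grm3) and group III (Grm4, Grm6, Grm7 and Grm8) act through Gi and Go, lower cyclic AMP and often restrain transmitter release from nerve endings. In the hippocampus Grm2 is known from the mossy fibres of dentate granule cells, Grm3 also from astrocytes and Grm7 from the active zones of nerve endings, while Grm6 is known for ON bipolar cells of the retina.

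Replicate 1 had 93545 peaks and 223251 footprints, and replicate 2 had 79144 and 170016. The authors' peak value, a signal with no stated scaling, is given below as the value in replicate 1 and then in replicate 2, and the number of cuts behind it is unknown. Replicate 2 had a promoter peak at Xist (1.01) and none at the Y-linked genes Ddx3y, Kdm5d, Uty and Eif2s3y, while replicate 1 had none at Xist and peaks at all 4 Y-linked genes (0.424 to 0.890). This goes against the label of replicate 2, so the name "library labelled male replicate 2" is used when the libraries are set against each other. All 7 receptor genes are autosomal. Over all protein-coding genes, 63.2% had a promoter peak in both libraries, and counts of 3 or 4 markers are too few to set against that share. Of markers, 3 of 3 granule cell genes and 3 of 4 pyramidal cell genes had promoter peaks in both libraries. So did 1 of 3 inhibitory neuron, 2 of 3 astrocyte, 1 of 3 oligodendrocyte and 0 of 3 microglia genes, with 2 of 3 cerebellar and 1 of 3 liver genes. In bulk tissue, fewer cells of a type and less open chromatin per cell cannot be told apart.

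The sequences of 5 regions are shown first, since the results refer back to them. Each lies in the strongest peak of replicate 1 of its kind in its gene, upstream promoter for Grm8 and Grm3, intronic promoter for Grm4, or distal intronic for Grm7 and Grm3. The sequence is the stretch that the peaks of both libraries share, at most 300 bases about its middle, 5′ to 3′ on the strand of the gene in mm10. Capitals mark bases in a footprint of either library. The first 3 lie at promoters and the last 2 in introns far from a start.
Grm8, chr6:28135941-28136140, minus strand: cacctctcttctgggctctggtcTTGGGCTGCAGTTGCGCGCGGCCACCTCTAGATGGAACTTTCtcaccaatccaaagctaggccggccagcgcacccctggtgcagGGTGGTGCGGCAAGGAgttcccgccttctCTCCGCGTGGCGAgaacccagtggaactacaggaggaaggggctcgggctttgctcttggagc
Grm4, chr17:27520661-27520880, minus strand: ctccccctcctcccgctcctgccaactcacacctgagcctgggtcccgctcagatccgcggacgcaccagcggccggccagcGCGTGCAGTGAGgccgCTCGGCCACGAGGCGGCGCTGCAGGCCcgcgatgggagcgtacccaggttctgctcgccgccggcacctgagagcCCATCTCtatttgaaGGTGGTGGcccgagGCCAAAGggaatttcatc
Grm3, chr5:9725961-9726060, minus strand: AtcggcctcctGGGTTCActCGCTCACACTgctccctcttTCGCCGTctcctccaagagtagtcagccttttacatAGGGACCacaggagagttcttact
Grm7, chr6:111373061-111373240, plus strand: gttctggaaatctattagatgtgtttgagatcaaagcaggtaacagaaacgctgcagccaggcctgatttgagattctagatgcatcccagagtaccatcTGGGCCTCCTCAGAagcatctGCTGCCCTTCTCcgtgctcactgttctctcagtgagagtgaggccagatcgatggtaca
Grm3, chr5:9661941-9662240, minus strand: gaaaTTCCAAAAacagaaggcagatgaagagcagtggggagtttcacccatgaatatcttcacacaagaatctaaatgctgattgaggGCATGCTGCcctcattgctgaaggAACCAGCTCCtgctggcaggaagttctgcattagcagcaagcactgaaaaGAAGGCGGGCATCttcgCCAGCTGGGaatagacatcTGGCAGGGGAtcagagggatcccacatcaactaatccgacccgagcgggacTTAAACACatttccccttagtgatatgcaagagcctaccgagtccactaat

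The upstream Grm8 sequence had 71 bases in footprints, 48 of them in both libraries, and the Grm4 sequence had 61 and 32. At the other 3 regions 0 to 11 bases lay in footprints of both libraries. Footprints thus overlapped most at the Grm8 and Grm4 promoter regions among the 5 shown. None of the 5 holds soft-masked repeat sequence.

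A promoter peak was counted when it touched the 1 kb on either side of any annotated start of its own gene. By this rule 7 of 7 members had a promoter peak in both libraries, where 63.2% of the 21728 protein-coding genes did. In the authors' shorter, stricter list, 5 of 7 members kept a promoter peak in both libraries against 57.6% of genes, and Grm2 and Grm6 did not. The members' median of the highest promoter value was 1.77 and 1.41, against 2.22 and 2.11 over the 13724 genes open in both libraries. Ranked by the mean of both libraries among those genes, Grm5 stood at percentile 42.2, Grm8 at 36.7, Grm7 at 33.7, Grm3 at 30.7, Grm4 at 22.7, Grm2 at 15.6 and Grm6 at 0.958. The means were 1.95 ± 0.27 for Grm5, 1.78 ± 0.12 for Grm8, 1.69 ± 0.51 for Grm7, 1.59 ± 0.25 for Grm3, 1.31 ± 0.22 for Grm4, 1.04 ± 0.24 for Grm2 and 0.401 ± 0.093 for Grm6 (SD, n = 2 libraries each). The library values of each neighbouring pair in this order overlapped, down to Grm4 and Grm2, and both Grm6 values lay below both Grm2 values.

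**Figure D1:**
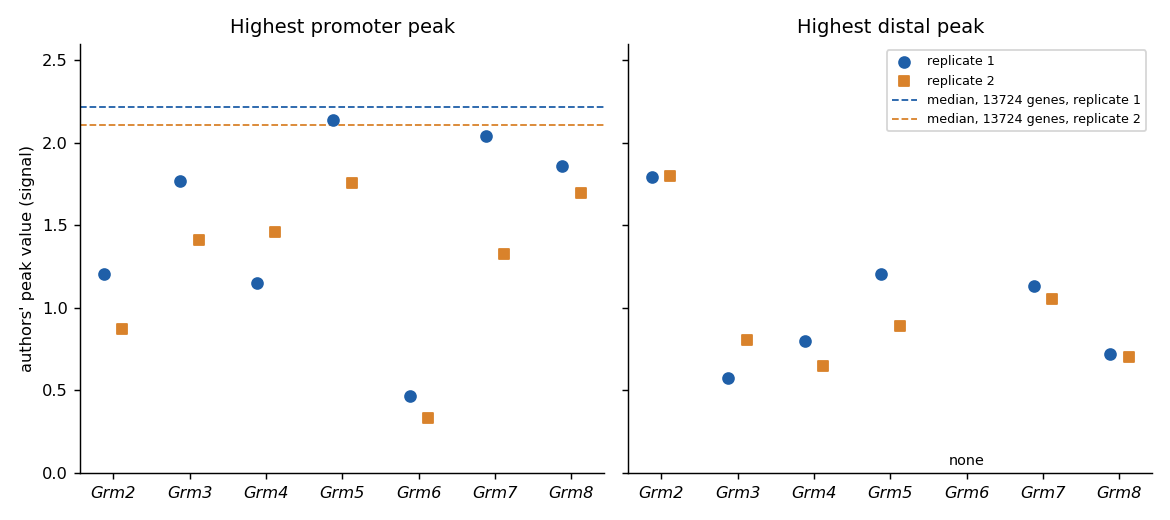
Authors' peak value of the highest promoter peak (left) and highest distal peak (right) of each receptor gene, 1 point per library; dashed lines are the medians of the highest promoter peak over 13724 genes open in both libraries. Grm6 has the lowest promoter points (0.466 and 0.335) and no distal peak, and the Grm2 distal points (1.79 and 1.80) lie above its promoter points.

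Starts were not open alike within a gene. Annotated starts within 1 kb of each other were joined into 17 groups, of which 9 had a peak in both libraries, 3 had one in replicate 1 only and 5 had none. All 7 first groups were open in both libraries, and of the 10 later groups 2 were, those of Grm4 and Grm8. Over genes with several groups, 30.2% of 38841 groups, first and later together, had a peak in both libraries. The 17 groups of the members also hold the 1 group of Grm3, and no share for later groups alone was made. Groups without a peak were groups 3 and 4 of Grm4, group 2 of Grm6, group 2 of Grm7, where 2 coding transcripts start far inside the gene, and group 3 of Grm8, where 2 more do. In none of these 5 windows did either library list a base with an FDR under 0.05.

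**Figure D2:**
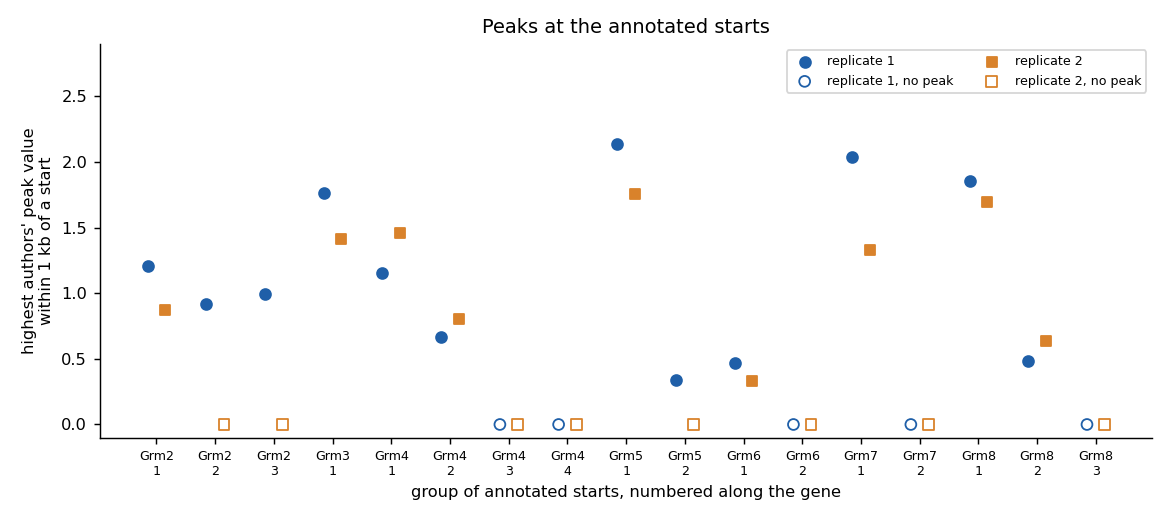
Highest authors' peak value within 1 kb of each group of annotated starts, numbered along each gene, with 1 filled point per library and open symbols at 0 where no peak was called. Every first group has 2 filled points, and later groups hold at most 0.996.

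Grm5, the group I receptor linked to long-term depression (chromosome 7 from 87584168 to 88134907), had the strongest promoter of the 7. The peak from 87584161 to 87584700 had 2.14 in replicate 1, and 2 peaks there had at most 1.76 in replicate 2. The lowest FDR was 2.5e-20 and 1.93e-15. A second group of starts had a weak peak over a coding exon in replicate 1, 18.8 kb into the gene (0.339), where replicate 2 had no peak and 43 bases with an FDR under 0.05. Of 12 distal regions 8 were found in both libraries, 9 of the 12 in introns. The strongest lay 2.51 kb into the gene, over an exon of a noncoding transcript, with 1.21 and 0.890. A region of 1020 bp over a coding exon near the 3′ end, 546 kb from the start, had 1.19 and 0.825. The highest peak found in a single library was 0.554 in replicate 2, 514 kb from the start, where replicate 1 listed no base with an FDR under 0.05.

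Grm2 and Grm3 make up group II. Grm3 (chromosome 5 from 9485541 to 9725170) has 1 annotated start, and its strongest peak lay upstream of it, from 9725841 to 9726200, with 1.77 and 1.41. A region over the start itself had 1.24 and 0.999. Another promoter peak, 0.49 kb inside the gene, was called in replicate 1 alone (0.784), though all 200 of its bases had an FDR under 0.05 in replicate 2 as well. Both libraries had 5 distal peaks in Grm3, all in introns, and 3 of 7 distal regions were common to both. The intron region shown above, 63.0 kb into the gene, was the strongest of them, with 0.572 and 0.806.

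Grm2 (chromosome 9 from 106643095 to 106656082) was open over much more of its length in replicate 1. Replicate 1 had 4 promoter peaks of 0.919 to 1.21, and the library labelled male replicate 2 had 1, of 0.870. Bases with an FDR under 0.05 made up 12.4% of the gene and its flanks in replicate 1, 4.10 kb, but 2.17%, or 0.715 kb, in the library labelled male replicate 2. Of the 16732 protein-coding genes under 50 kb, 320 had a difference in that direction at least as large. The 8 regions include that at a start inside the neighbour Tex264. At 5 of the 8, replicate 1 had a peak and the other library listed no base at all. One lies upstream of the start, and the others lie 0.212, 1.45, 8.53 and 9.94 kb into the gene, the last 2 near internal starts.

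The exception at Grm2 was its 3′ end. A 220 bp peak in the 3′ UTR, on chromosome 9 from 106643241 to 106643460, had 1.79 and 1.80, above every other peak of the gene in both libraries. Its value stood at percentiles 96.1 and 94.8 among all distal peaks of its library. The annotated antisense gene Gm28111 also covers this position, and DNase-seq gives no strand. A peak at an annotated start inside the neighbour Tex264, within the 10 kb flank, had like values as well, 1.11 and 1.08. The outermost start of Tex264 lies outside the flank. Granule cell markers were lower in the library labelled male replicate 2, with Prox1 at 1.51 and 1.06, C1ql2 at 1.72 and 1.21 and C1ql3 at 1.89 and 1.53, and with sums over the 3 genes of 5.12 and 3.80. Of the 4 pyramidal cell markers, Neurod2 had 2.12 in replicate 1 and no peak in the other library, Slc17a7 had 1.05 and 1.01, and Wfs1 (2.40 and 2.53) and Neurod6 (0.968 and 0.973) were no lower. The summed values were 6.54 and 4.52 for pyramidal cell markers and 2.61 and 1.35 for inhibitory neuron markers. They were 2.78 and 2.57 for astrocyte, 2.25 and 0.973 for oligodendrocyte, and 0.862 and 0 for microglia markers. A gene without a promoter peak adds nothing to these sums. In the library labelled male replicate 2 this holds for Neurod2, Gad2, Slc32a1, Olig2 and Csf1r, which had peaks in replicate 1. Gad1 and Gfap were higher in the library labelled male replicate 2, and Slc1a3 and Mbp were lower. The part of these cell types in the Grm2 difference was not tested.

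**Figure D3:**
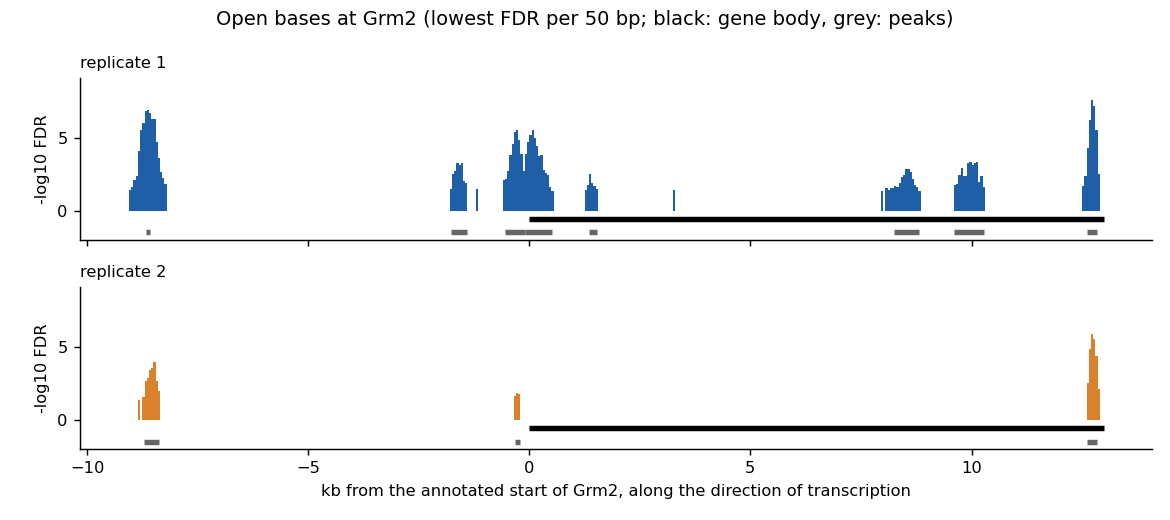
Negative log10 of the lowest FDR per 50 bp along Grm2 by distance from its start, replicate 1 above and replicate 2 below, drawn only where the FDR is under 0.05, with the gene body in black and called peaks in grey. The peak near the 3′ end and the one at an annotated start inside Tex264 stand in both libraries, while 5 of the 8 regions appear in replicate 1 alone.

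Among group III genes, Grm8, a presynaptic receptor (chromosome 6 from 27275119 to 28135178), had the strongest promoter signal by the mean of both libraries, with Grm7 above it in replicate 1. Its highest peak lay upstream of the outermost start, on chromosome 6 from 28135761 to 28136140, with 1.86 and 1.70, and it holds the first sequence shown above. Around the starts themselves 3 regions of 213 to 732 bp were common to both libraries, with lower values of at most 0.763 and 0.638. Peaks of the second group of starts overlap the window of the first in part, so the groups are not independent. The 1 kb about the outermost start was richer in CpG than in any other member, with an observed to expected ratio of 0.798, at percentile 79.2 of all genes, where the other 6 lay between 0.350 and 0.524.

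Away from its promoter Grm8 was sparse, with 6 and 3 distal peaks over 880 kb. Of 7 distal regions 2 were found in both libraries. One of them lay in an intron 373 kb into the gene, with 0.290 and 0.361. A peak of 0.703 in the library labelled male replicate 2, 477 kb into the gene, had no listed base in replicate 1. The 4 distal peaks found in replicate 1 alone had values of 0.184 to 0.367.

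Grm7, the receptor of presynaptic active zones (chromosome 6 from 110645581 to 111567230), had its strongest peak over a coding exon 0.389 kb past the start, with 2.04 and 1.33. This was the widest gap between the libraries among the promoters in absolute value. The antisense gene Gm20387 starts inside this peak, so it cannot be assigned to 1 of them. Open chromatin ran on into the first intron, where 4 distal regions within 5 kb of the start were found in both libraries, the strongest 1.53 kb in with 1.10 and 1.06 and the next 2.20 kb in with 0.897 and 0.599. Far inside, 728 kb from the start, the intron region shown above had 1.13 and 0.896. Of 19 distal regions of Grm7, all intronic, 15 were common to both libraries, and the strongest of the other 4 was in replicate 1 alone (0.678, 836 kb from the start).

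Grm4, a presynaptic receptor best known from the cerebellum (chromosome 17 from 27422387 to 27521403), had its strongest peak in the first intron, 0.623 kb past the outermost start, with 1.15 and 1.46. It holds the second sequence shown, with 69.1% G and C. The second group of starts sits in sequence that is richer in CpG (observed to expected ratio 0.766, against 0.362 at the first group) but had weaker peaks, at most 0.664 and 0.806. Distal peaks numbered 4 and 7, and 2 of 9 distal regions were common to both libraries. They lay 98.4 kb into the gene, next to its 3′ end (0.798 and 0.651), and 9.24 kb into it (0.742 and 0.599). The middle of the replicate 1 peak at 9.24 kb was 1245 bp past a start of the second group, just beyond the 1 kb promoter window. With promoter windows of 2.5 kb the mean of the distal peaks of Grm4 was 4.5, against 5.5.

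Grm6 (chromosome 11 from 50850685 to 50866208) had 1 weak region, over a coding exon 0.632 kb past the start, with 0.466 in replicate 1 and a pair of peaks of 0.322 and 0.335 in replicate 2. No base in it reached an FDR of 0.001. The antisense gene Gm12660 overlaps it. The other peak in the window belongs to the promoter of the zinc finger gene Zfp879, with 2.88 and 2.51. Grm6 had no distal peak in either library, as 44.7% of genes under 50 kb.

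**Figure D4:**
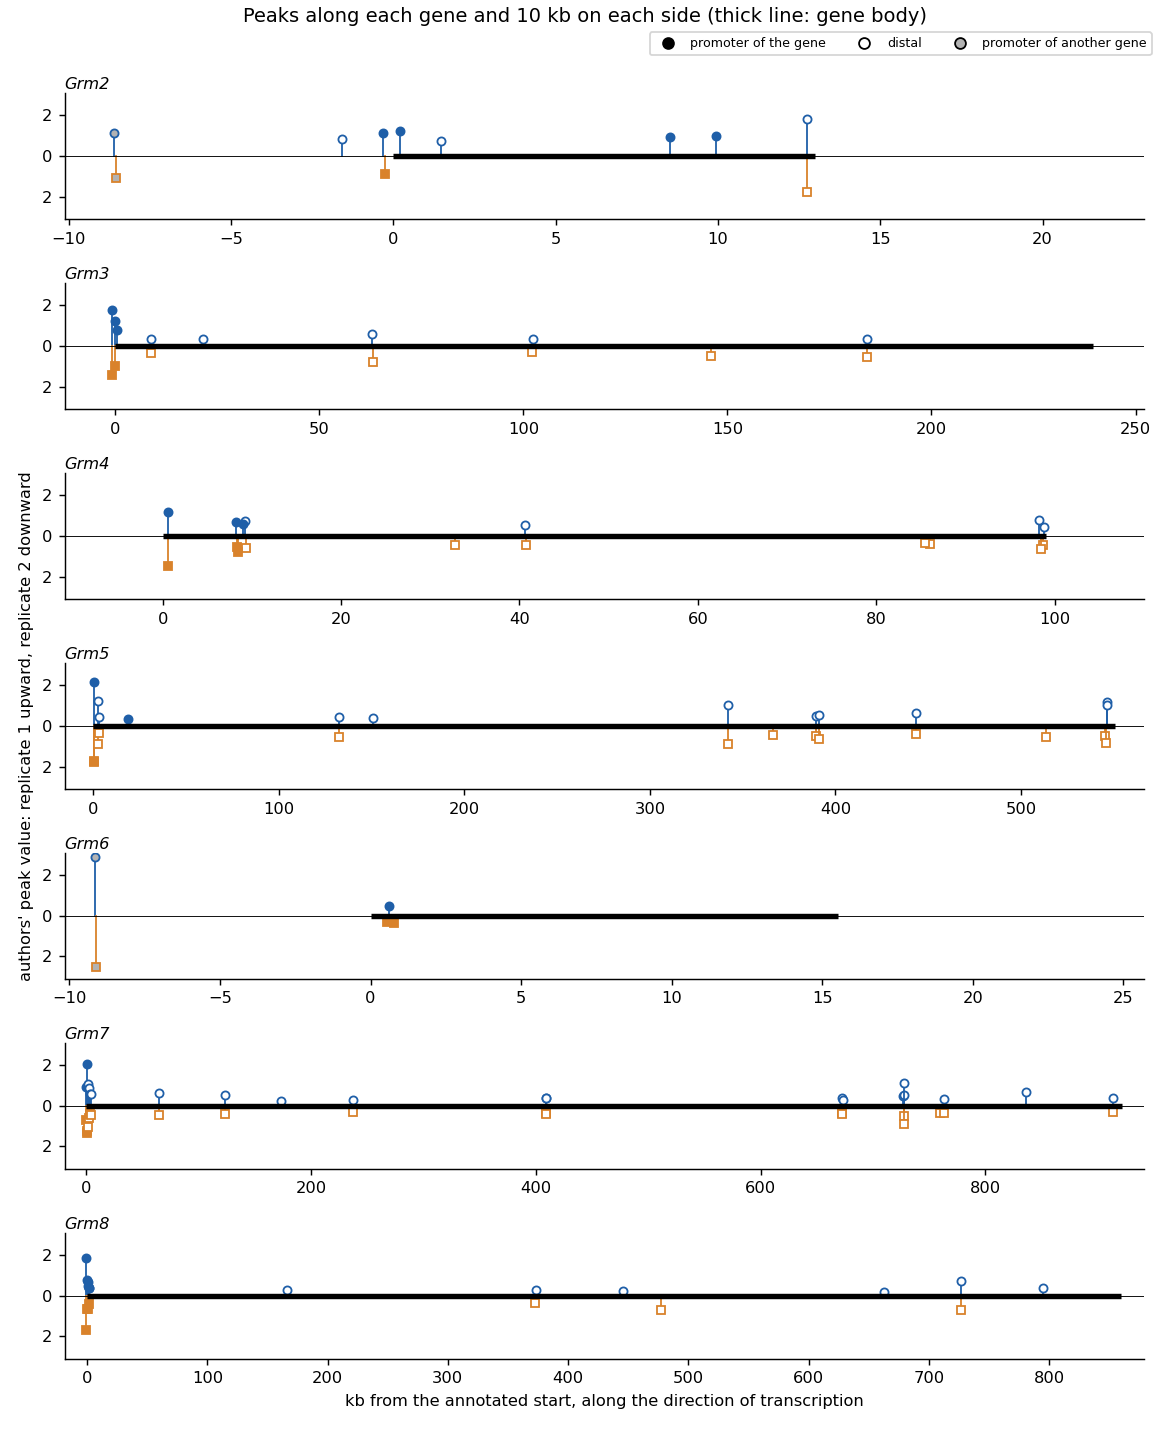
Peaks of each receptor gene by distance from its annotated start in kb, with the authors' value upward for replicate 1 and downward for replicate 2, filled for its own promoter, open for distal and grey for the promoter of another gene. Each panel has its own horizontal scale; Grm7 carries 19 distal regions along its length, Grm8 carries 7 and Grm6 none.

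Together the members held 46 and 43 distal peaks, 44.5 ± 2.1 (SD, n = 2), where distal means touching no 1 kb promoter window of any protein-coding gene. Merged over both libraries these were 57 regions, 49 of them in introns and 8 within 5 kb of the start. In replicate 1, 32 of the 46 distal peaks overlapped a peak of the other library, where 51.5% of all distal peaks did, and in replicate 2 31 of 43 did, where 64.7% of all did. Most of these were from Grm7 (15 of 18 and 15 of 16) and Grm5 (9 of 10 and 8 of 11). The shared counts were 3 of 5 in both libraries at Grm3 and 2 of 4 and 2 of 7 at Grm4. They were 2 of 6 and 2 of 3 at Grm8, and 1 of 3 and 1 of 1 at Grm2. Of promoter peaks 14 of 21 were shared in replicate 1 (78% of all promoter peaks) and 16 of 17 in replicate 2 (85% of all). Grm2 supplied 3 of the 7 promoter peaks of replicate 1 without a partner. The members' median distal value was 0.509 and 0.464, against 0.551 and 0.548 over all distal peaks.

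Distal peaks per 100 kb fell within the range of other genes. The density was 6.06 ± 4.3 at Grm2, 4.62 ± 1.8 at Grm4, 1.93 at Grm3 in both libraries, 1.84 ± 0.12 at Grm5, 1.81 ± 0.15 at Grm7, 0.511 ± 0.24 at Grm8 and 0 at Grm6 (SD, n = 2 each). The median of the 7 was 1.84, against 1.70 over all 21728 genes. Among the 997 genes over 200 kb, whose median was 1.99, Grm3, Grm5 and Grm7 stood at percentiles 47.9, 45.2 and 44.4 and Grm8 at 8.78. Grm8 had the lowest density of the 4 long members. Grm4 stood at percentile 81.8 of genes of 50 to 200 kb, and Grm2 at 82.5 of shorter genes, though with 3 peaks in replicate 1 and 1 in replicate 2.

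**Figure D5:**
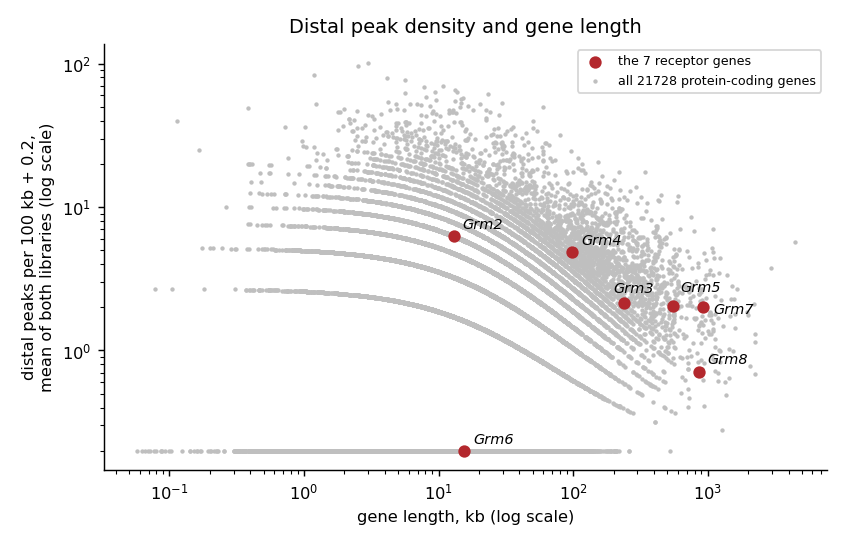
Distal peaks per 100 kb (mean of both libraries plus 0.2, log scale) against gene length in kb (log scale), with the 7 receptor genes in red and all 21728 protein-coding genes in grey. Grm3, Grm5 and Grm7 lie amid genes of their length, Grm8 lies low and Grm6 has no distal peak.

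Transcript ends were counted after the values had been seen. Any annotated end of a gene counted, and the share over all genes was not matched for gene length or number of ends. Within 1 kb of an annotated transcript end, 4 of 7 members (Grm2, Grm4, Grm5 and Grm8) had an overlapping non-promoter peak in both libraries, where 9.25% of protein-coding genes did. At Grm2 and Grm4 this was the end of the gene itself. At Grm5 and Grm8 it was the end of a shorter transcript, at Grm8 near the region 373 kb into the gene.

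Footprints numbered 168 and 130 over the members, 149 ± 27 (SD, n = 2), and 153 and 114 of them lay in a peak of their own library. Grm7 had 39 and 41, Grm5 34 and 29, Grm3 21 and 17, Grm4 18 and 12, Grm8 17 in both and Grm6 6 and 7. Grm2 had 33 in replicate 1 but 7 in the library labelled male replicate 2. Footprints that overlapped one of the other library were 45 of 168 in replicate 1 (26.8%) and 47 of 130 in replicate 2 (36.2%), against 30.0% and 39.4% over all footprints. The longest were 37 and 33 bp, both at Grm8.

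Joined runs of bases with an FDR under 0.05 that touched no peak of either library numbered 15 in replicate 1 and 13 in replicate 2, none over 47 bp. They covered 218 and 206 bp. Listed bases that reach past the edge of a peak are not in this count, and no like count over all genes is given. Of these 13 runs, 2 overlapped listed bases of replicate 1, and both were at most 2 bp long. Of the 80 regions with a peak in either library 46 had peaks in both, and at 27 of the other 34 the second library listed no base.

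Short motifs were searched in 200 bp windows about the middle of each region, on both strands. The E-box CAGATG was found in 15 of 57 distal windows of the members, where 23.3% of 79777 distal windows held it, and CAGCTG in 9 of 57, where 18.9% did. GGGCGG, the letters of KLF and SP factors, was found in 3 of 21 promoter windows of the members, where 37.0% of 29572 promoter windows held it. The AP-1 letters TGANTCA were found in 1 of 57 distal windows (6.92% of all) and 1 of 21 promoter windows (3.30% of all). No member window held the CRE letters TGACGTCA (1.15% of all promoter and 0.280% of all distal windows), the EGR letters GCGTGGGCG (0.639% and 0.125%), the NRF1 motif (3.47% and 0.322%) or the RFX motif (0.0744% and 0.118%). The MEF2 motif (2.54% of all distal windows) and the core CTCF motif (2.48% of them) were each found in 1 distal window and in no promoter window.

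A looser form of the core CTCF motif, with more free positions, was added after the upstream Grm8 sequence had been seen. CTCF is the zinc finger protein of chromatin loop anchors. The letters occur in that sequence as CCTCTAGATGG at bases 48 to 58, with all 11 bases in a footprint in both libraries. They also occur in the first-intron Grm4 sequence as CCACGAGGCGG at bases 104 to 114, with 9 of 11 bases in a footprint in replicate 1 and 11 in replicate 2. Among the 200 bp member windows 2 of 21 promoter ones, those of this Grm4 region and of the Grm6 region, and 6 of 57 distal ones held the looser letters. The Grm8 match lies outside the window of its region and is not in that count. They were found in 7.15% of all promoter windows and 8.47% of all distal windows, and such a match is a description of the letters only.

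Genes that act with these receptors were mostly open. All 16 genes of group I signalling had a promoter peak in both libraries, where 63.2% of all protein-coding genes did, and the highest means of both libraries were those of Ncdn, which encodes the Grm5 partner norbin (4.34 and 3.91), and Homer1, a scaffold that binds Grm5 (4.09 and 3.60). Of 19 genes of group II and III signalling and partners 18 did, against the same 63.2%, among them Pick1, a scaffold that binds Grm7 (3.51 and 3.64). Their median highest promoter values were 2.35 and 2.38 for the group I list and 1.93 and 1.79 for the other list, where the receptors themselves had 1.77 and 1.41 and all genes open in both libraries 2.22 and 2.11.

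Partners of Grm6 at retinal ON bipolar cells were open in 5 of 10 cases, where 63.2% of all protein-coding genes were, and Rgs9bp (3.34 and 2.24) and Gnb5 (2.27 and 2.34) had the highest means of both libraries. The channel gene Trpm1, Gpr179, Lrit3 and Gnb3 had no promoter peak in either library, and Nyx had one in replicate 1 alone (0.671). Of 5 markers of those cells, 0 had a promoter peak in both libraries.

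Genes most like each member in promoter value and distal density, within its length class, were sought over the 2 libraries as the nearest in Euclidean distance on the log2 scale. They were Rbpjl for Grm2 (distance 0.205), Robo1 for Grm3 (0.168), Mdm4 for Grm4 (0.176), Adgrb3 for Grm5 (0.174), Noxred1 for Grm6 (0.0215), Dner for Grm7 (0.246) and Enox2 for Grm8 (0.257). With 4 values per gene from 2 libraries this likeness is coarse.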

How the data were processed

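The data were 2 DNase-seq libraries of mouse hippocampus, replicates 1 and 2 of 1 group. Per the file headers, the assembly was mm10 and each list was made from the alignments of its own library, so replicates were not pooled. The choice of aligner and callers, not given in the sources used here, can affect which regions are listed. The deposited peak value is the authors' signal per peak, with no stated scaling, and how many cuts lie behind it is unknown. The deposited FDR is a p-value type column for runs of bases, and the files list runs under 0.05. Footprints were used by position.

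Genes and their starts were those of GENCODE M21. Sequence was read from GRCm38.p6, the build of mm10, in which 0 peaks ended beyond their chromosome. Overlaps used Python 3.11.15 with pandas 2.3.3, numpy 2.4.6 and pysam 0.24.0, tested on simulated data against bedtools 2.31.1. Peaks were shared at an overlap of 1 bp or more. Listed runs within 20 bp of each other were joined. Members, lists, the rule for named genes and the alternatives were chosen with earlier results of these data known. That rule names all 7 members, the 2 strongest and the closed promoters of each list, the strongest peaks of each member and its nearest gene in promoter and distal values. A few items that the rule names are not reported here. With 1 group and 2 libraries no test was made, and p-values are not given.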

Additional observations from a re-analysis of the deposited data

How the results depend on the processing

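With 1 group of 2 libraries every count rests on few samples, and the depth of neither library is known, so a peak missing from 1 list may be open below its threshold. No paired analysis was possible because the series has a single group. Without either replicate in turn the members with a promoter peak stayed at 7, the distal peaks ranged from 43 to 46, the footprints from 130 to 168, the listed length from 18.7 to 24.96 kb and the median distal density from 1.91 to 1.93 per 100 kb (all genes 1.32 to 1.70), against 1.84 (all genes 1.70) with both. The shorter list left 14.5 distal peaks (from 44.5) and a density of 0.584 (all genes 0), and 5 open promoters. The density was 1.66 with promoter windows of 2.5 kb (all genes 0.939) and 1.91 in gene bodies alone (all genes 0). With flanks of 50 kb it was 1.77 (all genes 2.31). Of these settings only that one put the members' median below that of all genes. The medians of all genes were not matched for length. Of the 21728 genes 16732 were under 50 kb, and 44.7% of those had no distal peak. In the main setting the 4 members over 200 kb had a median of 1.82, against 1.99 over the 997 genes of that length. A reciprocal overlap of 50% left 38.9% of peaks shared (74.0% at 1 bp), an FDR of at most 0.001 left 10.4 kb of 21.8 kb, and gene bodies alone 16.99 kb. The same shares and lengths over all peaks or genes are not given, so these losses cannot be read as particular to the members. The cause of these changes was not tested. Of 56 recomputed values of single members 11 moved beyond the limit set for them and 45 did not. Among the recomputed values over the members together, 10 moved and 18 did not.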
